A study of Rattus norvegicus with 36 samples.

Results

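The genes described here are 10 genes that low oxygen raises in many cell types, most of them concerned with blood vessel growth or with glucose use: Vegfa, Slc2a1, Hk2, Pfkfb3, Ldha, Pgk1, Bnip3, Ndrg1, Adm and Pdk1. They were found by gene symbol in the platform annotation, and 17 of the 31042 tested probe sets carry one of them. Where a gene has several, its brightest probe set stands for it, as for each of the 14217 named genes. The samples are cultured granulosa cells, the hormone-producing cells that surround the oocyte in the ovarian follicle, from immature Sprague-Dawley rats of 21 to 27 days. The cells attached for 24 h in medium with 5% serum. They were then kept for 48 h without serum, with androstenedione, from which granulosa cells make estradiol, in all 12 groups. The series text gives its concentration as 0.1 µM and the sample descriptions as 0.1 M. HPTE, a metabolite of the pesticide methoxychlor, was present at 0, 1, 5 or 10 µM. At each dose the cells were left unstimulated (basal), or received follicle-stimulating hormone (FSH) at 3 ng/ml, or cAMP at 1 mM. Each group has 3 arrays, numbered 1 to 3 in the sample titles. The labels do not say whether the numbers stand for separate animals, cell pools or wells, so p-values measure the spread between these samples, which may be technical.

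When oxygen is short, the transcription factor HIF is no longer degraded and binds short motifs near its target genes. Among these targets are the vascular growth factor Vegfa, the vasodilator peptide adrenomedullin (Adm), the glucose transporter Slc2a1 (GLUT1), glycolytic enzymes and the mitochondrial proteins Bnip3 and Pdk1. The granulosa layer of a growing follicle has no vessels of its own, granulosa cells pass pyruvate and lactate to the oocyte, and VEGF from these cells takes part in forming the vessels of the corpus luteum. The receptor for FSH signals by raising cAMP inside the cell, and cAMP in the medium does not need this receptor. The labels name no low-oxygen culture, and neither oxygen nor HIF protein was measured here.

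The windows around annotated start sites show which of these motifs lie close to the genes. RefSeq (GRCr8) windows from 250 bases before to 50 after a start site were matched for 8 of the 10 genes, in 9 windows because Vegfa has 2. Pgk1 and Ndrg1 were not matched. Searched on both strands were ACGTG and GCGTG, the 2 forms of the HIF core, and TGACGTCA, the cAMP response element. At least 1 ACGTG stood in the windows of 5 of the 8 genes (Slc2a1, Pfkfb3, Ldha, Bnip3 and Pdk1) and in 19.3% of all 33469 windows of this length. GCGTG stood in 29.7% of all windows, either core in 41.6% and TGACGTCA in 1.83%. Ldha was the only one of the 8 genes with TGACGTCA, at -51 to -44 from the start. Hk2, Adm and both Vegfa windows held none of the 3 motifs, which says only that these letters are not in these windows. The windows of Slc2a1, Ldha, Bnip3 and Pdk1 are shown because these genes lay above basal with cAMP at 5 µM, as described below, and that of Adm because its group means span the widest range (6.91 to 9.34 on the log2 scale). They read 5′ to 3′ on the strand of the gene, and capitals mark these 3 motifs on either strand. The palindrome CACGTG holds ACGTG once on each strand.
Slc2a1 (chr5:138002272-138002571, plus strand): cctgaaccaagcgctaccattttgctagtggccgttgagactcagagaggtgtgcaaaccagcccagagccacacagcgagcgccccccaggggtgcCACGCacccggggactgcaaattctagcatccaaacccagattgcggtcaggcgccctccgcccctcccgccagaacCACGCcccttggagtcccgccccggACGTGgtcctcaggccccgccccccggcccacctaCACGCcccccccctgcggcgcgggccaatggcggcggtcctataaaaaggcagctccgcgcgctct
Ldha (chr1:106507842-106508141, plus strand): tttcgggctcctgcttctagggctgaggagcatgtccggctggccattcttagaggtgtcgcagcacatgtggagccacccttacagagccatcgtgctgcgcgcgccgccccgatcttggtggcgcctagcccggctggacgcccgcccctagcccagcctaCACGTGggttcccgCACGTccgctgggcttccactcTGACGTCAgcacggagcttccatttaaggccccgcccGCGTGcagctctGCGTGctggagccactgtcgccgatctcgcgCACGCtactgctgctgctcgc
Bnip3 (chr1:203154913-203155212, minus strand): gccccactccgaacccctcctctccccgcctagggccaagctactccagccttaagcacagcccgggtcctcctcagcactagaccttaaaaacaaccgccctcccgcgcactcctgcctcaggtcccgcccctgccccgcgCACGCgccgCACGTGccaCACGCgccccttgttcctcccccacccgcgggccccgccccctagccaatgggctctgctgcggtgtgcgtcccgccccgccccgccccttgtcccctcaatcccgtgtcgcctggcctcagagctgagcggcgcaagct
Pdk1 (chr3:77113264-77113563, plus strand): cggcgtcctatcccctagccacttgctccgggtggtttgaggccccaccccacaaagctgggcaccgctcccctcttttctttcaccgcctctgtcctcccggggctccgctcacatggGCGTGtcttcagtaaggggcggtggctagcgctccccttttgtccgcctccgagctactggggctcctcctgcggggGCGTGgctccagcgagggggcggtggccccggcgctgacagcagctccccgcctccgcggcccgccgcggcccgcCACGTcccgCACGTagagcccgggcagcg
Adm (chr1:174179950-174180249, plus strand): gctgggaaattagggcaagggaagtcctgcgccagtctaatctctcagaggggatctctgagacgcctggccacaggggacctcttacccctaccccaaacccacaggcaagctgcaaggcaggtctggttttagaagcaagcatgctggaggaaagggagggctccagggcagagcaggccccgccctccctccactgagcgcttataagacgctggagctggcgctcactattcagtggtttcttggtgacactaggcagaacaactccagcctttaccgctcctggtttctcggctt

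The median intensity of the 36 arrays lay between 65.8 and 73.7. Of the granulosa markers, 6 of 7 measured lay above the median level of all probe sets (log2 6.11), Esr2 being the exception. So did 6 of 7 theca and stroma markers, 4 of 6 oocyte markers and 2 of 4 red blood cell markers. At 5 µM HPTE the summed oocyte marker intensity ran from 331 to 657 over the basal arrays and from 866 to 1629 with cAMP. At 0, 1 and 10 µM these ranges overlapped. The part of oocytes in the values below was not tested. Number 2 of the unexposed FSH and cAMP groups reads unlike numbers 1 and 3 and is called in doubt below. Aromatase (Cyp19a1), which FSH induces in these cells, read 11.49, 7.48 and 11.46 on the log2 scale in FSH numbers 1 to 3 and 7.62, 11.01 and 6.46 in cAMP, so that each number 2 resembles the other group. FSH number 2 was also the lowest at 1 µM (11.37, 9.03 and 11.23 in numbers 1 to 3) and at 5 µM (9.03, 5.08 and 8.26). With cAMP, number 2 lay between numbers 1 and 3 at 1, 5 and 10 µM. Whether labels were exchanged was not tested. The labels were kept as given, and results that rest on the unexposed number 2 arrays of FSH and cAMP are also given without both. Number 3 of every group differs from numbers 1 and 2 in the log2 ratio of 3′ to 5′ Gapdh signal, at 0.77 to 1.07 against 1.61 to 2.4. Arrays of the same number deviated together from their group means in 19 of 20 comparisons, though some arrays of different numbers did so too. A fit with the number as a block is therefore given wherever it alters a call. All differences below are log2 ± standard error from limma, with 3 arrays against 3 and p-values adjusted over 31042 probe sets within a comparison. "Called" means an adjusted p under 0.05, and a call without the block is one in the fit of all 36 arrays unless another setting is named.

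Among 230 values, 10 genes in 23 comparisons that partly share arrays, 21 were called: 12 of Ndrg1, 4 of Adm, 3 of Vegfa and 2 of Pdk1. With the number as a block 53 were called, and Hk2 was then the only gene of the 10 with none. FSH without HPTE changed 1 of the 10 genes, against 10.2% of all genes (4 and 20% with the block), and FSH at 1 µM changed 1 against 3.98% (5 and 10.5% with the block). The counts for cAMP against basal were 2 at 0 µM, 3 at 1 µM, 3 at 5 µM and 1 at 10 µM, against 9.21%, 10.8%, 9.93% and 7.34% of all genes. With the block they were 3, 6, 7 and 5, against 19.3%, 22%, 20.4% and 15.2%. HPTE at 5 µM with FSH changed 2 genes against 8.28% (3 and 18.1% with the block), and at 10 µM 3 genes against 10.8% (5 and 21.5%). At 10 µM with cAMP it changed 1 gene against 2.51% of all genes (4 and 7.94% with the block). With 10 genes, 1 gene more or less is 10 percentage points. Without the block the share called was near that of all genes for FSH without HPTE and for cAMP at 10 µM. With the block these 2 shares were above it, with 4 genes against 20% and 5 against 15.2%. In both fits the share was farthest above that of all genes for cAMP at 5 µM. The 10 genes were chosen with earlier results of these data known, so a share above that of all genes is not an independent result.

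**Figure D1:**
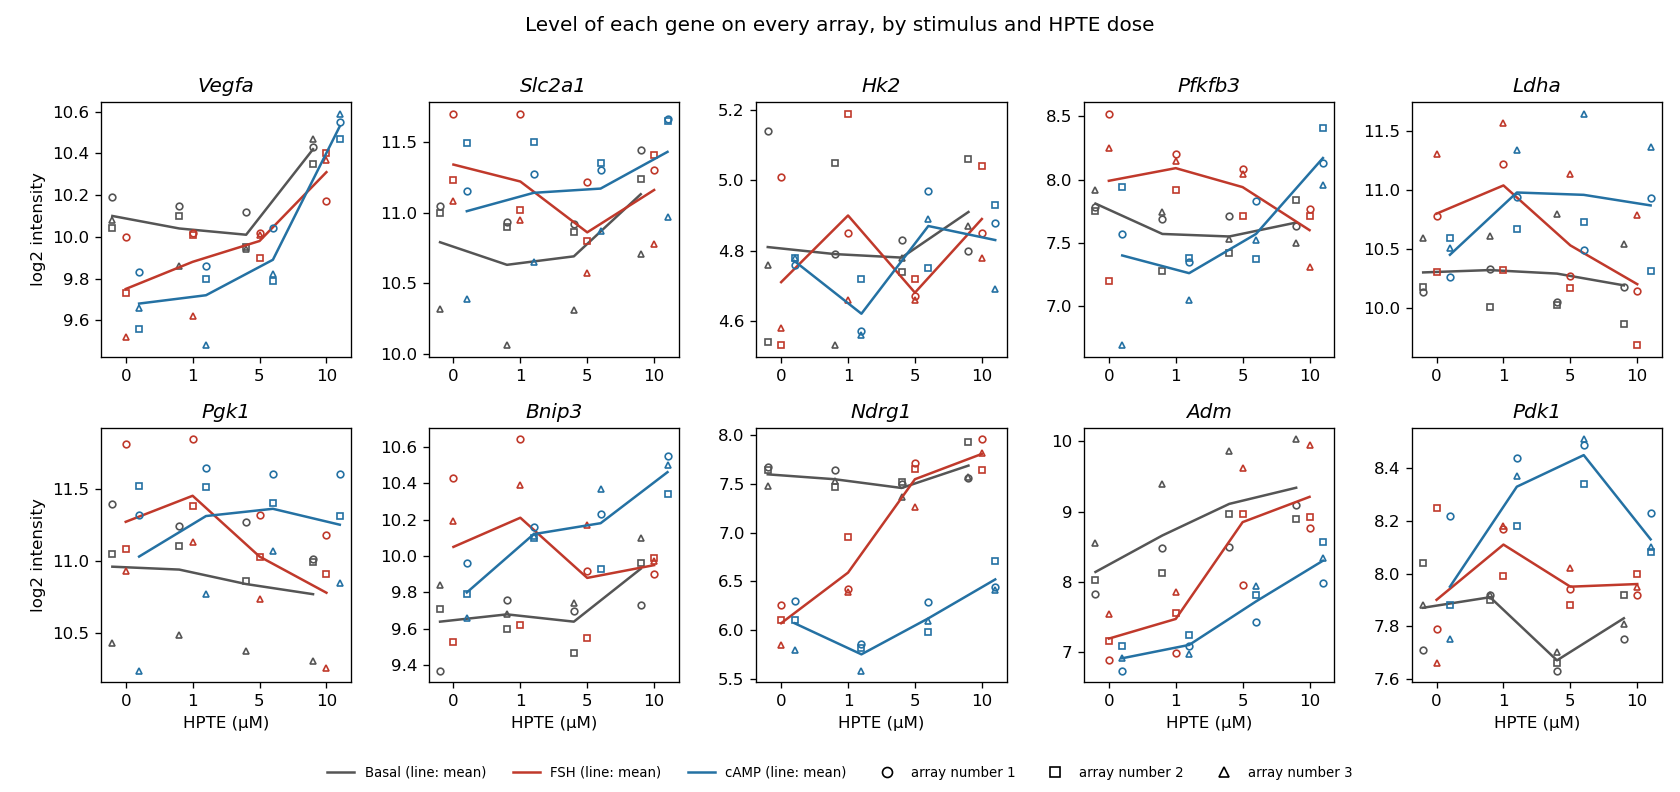
Log2 intensity (vertical axis, own scale for each gene) of the 10 genes on every array against HPTE dose (0, 1, 5 and 10 µM, evenly spaced). Colours stand for basal, FSH and cAMP, marker shapes for array numbers 1 to 3, and lines join group means of 3 arrays. Ndrg1 with FSH climbs from 6.07 at 0 µM to 7.81 at 10 µM while with cAMP it is 6.52 at 10 µM, and Adm is higher at 10 µM than at 0 µM under all 3 conditions.

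**Figure D2:**
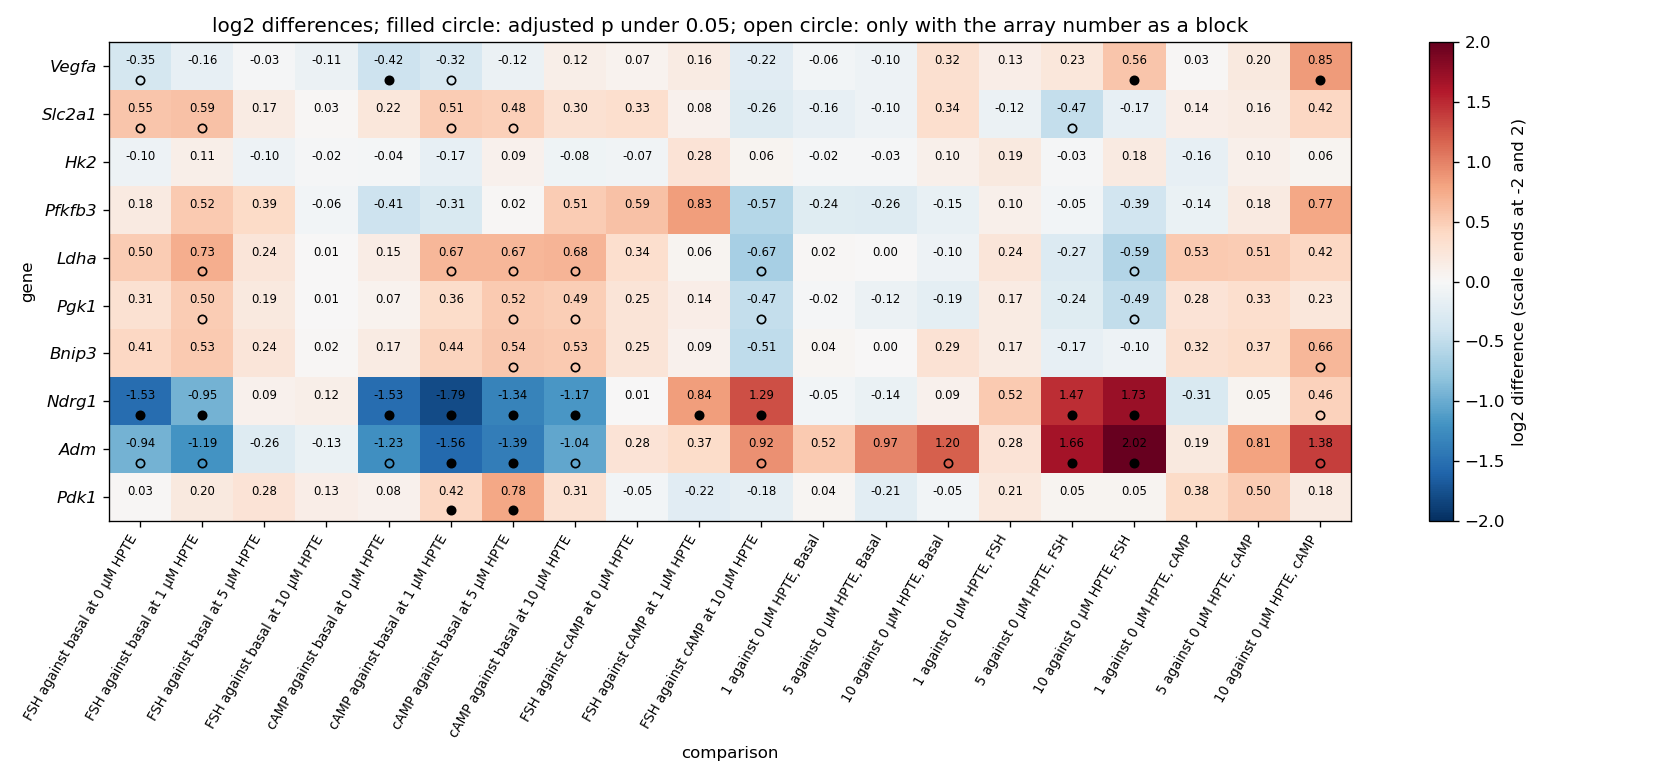
Log2 differences of the 10 genes (rows) in the 20 comparisons of 2 groups (columns), each printed in its cell, with colour from -2 to 2. Filled circles mark an adjusted p under 0.05 in limma and open circles values that pass only with the array number as a block. The filled circles lie in the rows of Ndrg1, Adm, Vegfa and Pdk1.

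Ndrg1 fell with both stimuli. It encodes a cytoplasmic protein induced by hypoxia and linked to growth arrest and differentiation. In basal cells without HPTE it read 7.68, 7.64 and 7.48 on the log2 scale in numbers 1 to 3. With FSH it read 6.26, 6.1 and 5.85, and with cAMP 6.3, 6.1 and 5.79. All stimulated arrays lay below all basal ones. The difference from basal was -1.53 ± 0.16 with FSH (2.88-fold lower, adjusted p = 1.73e-07) and -1.53 ± 0.16 with cAMP (2.89-fold lower, adjusted p = 1.83e-07), and these comparisons share the basal arrays. Without the number 2 arrays in doubt the differences were -1.54 and -1.55. Between FSH and cAMP themselves Ndrg1 differed by 0.01, and none of the 10 genes was called there by limma. Pfkfb3 alone had an unadjusted p under 0.05. Over all genes that comparison gave 0% called (460 at an unadjusted p under 0.05), 0 with the block and 2.71% without the number 2 arrays.

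HPTE at 5 and 10 µM raised Ndrg1 in FSH-stimulated cells to within 0.12 of the basal level of the same dose, while cells with cAMP stayed below basal at every dose. With FSH it read 6.42, 6.96 and 6.39 at 1 µM, 7.72, 7.66 and 7.26 at 5 µM and 7.96, 7.64 and 7.82 at 10 µM. All arrays at 5 and 10 µM lay above all unexposed FSH arrays. The difference from 0 µM was 0.52 ± 0.16 at 1 µM, which was not called, 1.47 ± 0.16 at 5 µM (adjusted p = 6.43e-07) and 1.73 ± 0.16 at 10 µM (3.33-fold, adjusted p = 2.19e-08). In basal cells 10 µM gave 0.09 ± 0.16, and with cAMP 0.46 ± 0.16, which was called with the block (adjusted p = 0.0363) and not without it (0.206), nor with the block once the number 2 arrays in doubt were left out (0.0729). The arrays with cAMP and 10 µM read 6.44, 6.71 and 6.41, below every array of the FSH group at that dose.

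The effect of 10 µM HPTE on Ndrg1 was larger with FSH than in basal cells by 1.64 ± 0.22 (adjusted p = 0.000113), and larger than with cAMP by 1.28 ± 0.22 (adjusted p = 0.00134). Of the 10 genes it was the only one called in either of these tests in the fit of all arrays without the block, where 2.9% and 2.54% of all genes were called (8.81% and 7.56% with the block). Without the number 2 arrays in doubt Pfkfb3 was called in the second test too, as given below. At 10 µM Ndrg1 was 1.29 ± 0.16 higher with FSH than with cAMP (5.9% of all genes called). With the block Ldha, Pgk1 and Adm were called there too, at -0.67, -0.47 and 0.92 (13.5% of all genes). Ndrg1 was also higher with FSH at 1 µM, by 0.84 ± 0.16 (0.577% of all genes called, and 3.18% with the block). The call at 1 µM ended without FSH number 2 (adjusted p = 0.137) or without cAMP number 3 (adjusted p = 0.107), and also with number 3 of all groups left out (0.173), the mean of both probe sets (0.105) or only the groups compared in the fit (0.321). FSH against basal gave -0.95 ± 0.16 at 1 µM (adjusted p = 0.00043, and 0.179 with only the groups compared), and 0.09 and 0.12 at 5 and 10 µM, where limma called none of the 10 genes. Of all genes 0% were called at 5 and at 10 µM, and 190 and 189 had an unadjusted p under 0.05. Pdk1 at 5 µM was the only one of the 10 among those. With the block 0.0281% and 0.00703% of all genes passed there, none of them one of the 10. With cAMP the difference from basal was called at every dose, at -1.79, -1.34 and -1.17 for 1, 5 and 10 µM. A second, dimmer Ndrg1 probe set did not follow the first: it gave -0.07 ± 0.19 for FSH without HPTE and -0.04 ± 0.19 for 10 µM HPTE with FSH, neither of them called. With the mean of both probe sets the effect of 10 µM HPTE was larger with FSH than in basal cells by 0.85 and than with cAMP by 0.73, both called. Which part of the transcript each probe set reads was not analysed here.

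Adm rose with HPTE in FSH-stimulated cells and fell with cAMP at 1 and 5 µM HPTE. It encodes the precursor of adrenomedullin, a peptide that widens vessels and acts on a receptor made of Calcrl and a Ramp protein. With FSH it read 6.88, 7.16 and 7.54 in unexposed cells, 6.99, 7.56 and 7.86 at 1 µM, 7.96, 8.97 and 9.62 at 5 µM and 8.77, 8.92 and 9.95 at 10 µM. The arrays at 5 and 10 µM lay above all unexposed ones. The rise was 1.66 ± 0.39 at 5 µM (adjusted p = 0.00648) and 2.02 ± 0.39 at 10 µM (4.05-fold, adjusted p = 0.000723). The call at 5 µM ended without number 3 of that group (adjusted p = 0.0742) and with only the groups compared (0.132).

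In basal cells Adm read 7.83, 8.03 and 8.55 without HPTE and 9.09, 8.9 and 10.03 at 10 µM. The groups did not overlap, and the difference of 1.20 ± 0.39 was called with the block (adjusted p = 0.0038) and not without it (0.216). It was the only one of the 10 genes called in basal cells at 10 µM, where 1.46% of all genes were called (4.71% with the block). At 1 and 5 µM basal cells gave 0.52 and 0.97, with no call among the 10 genes by limma with or without the block, and Adm at 5 µM alone had an unadjusted p under 0.05. Of all genes 0% and 0.0281% were called at these doses (0% and 0.169% with the block). With cAMP the arrays read 6.73, 7.08 and 6.92 at 0 µM and 7.98, 8.56 and 8.34 at 10 µM. That difference of 1.38 ± 0.39 missed the threshold in the fit of all arrays (adjusted p = 0.0706) and passed with the block (0.00052). It also passed, at adjusted p from 0.028 to 0.0499, under quantile normalization, without dim probe sets, without number 3 of all groups, with the mean of probe sets and with only the groups compared. Without the number 2 arrays in doubt it did not (0.0898). HPTE acted on Adm by amounts whose differences between conditions were not called: 0.82 ± 0.55 between FSH and basal cells, with a 95% interval from -0.31 to 1.95, and 0.63 ± 0.55 between FSH and cAMP, from -0.5 to 1.76.

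Set against basal cells of the same dose, Adm was lower with cAMP by 1.23 to 1.56 at 0, 1 and 5 µM and by 1.04 at 10 µM. The difference was called at 1 µM (-1.56 ± 0.39, adjusted p = 0.00807) and 5 µM (-1.39 ± 0.39, adjusted p = 0.0217), and at all 4 doses with the block. The call at 1 µM ended without basal number 3 (adjusted p = 0.0872). That at 5 µM ended without cAMP number 1 (adjusted p = 0.0986), cAMP number 2 (0.0528) or basal number 3 (0.184), and with only the groups compared (0.0715). The difference at 0 µM (-1.23, adjusted p = 0.0531) passed under the same 5 other settings, at adjusted p from 0.0267 to 0.0446. Without the number 2 arrays in doubt it did not (-1.31, adjusted p = 0.0807). FSH against basal gave -0.94 ± 0.39 and -1.19 ± 0.39 at 0 and 1 µM, called with the block (adjusted p = 0.00774 and 0.00207) and not without it (0.177 and 0.117). The differences of -0.26 and -0.13 at 5 and 10 µM were not called. Number 3 held the highest Adm level of its group in 9 of 12 groups.

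Markers of macrophages and leukocytes moved only in part with Adm and Ndrg1. Only Cd68, Lyz2 and Cd14 of the 8 lay above the median of all probe sets, while Ptprc (5.31), Csf1r (4.92), Aif1 (5.0), C1qa (5.82) and Cd3e (5.04) lay below it. Their summed intensity ran from 807 to 2249 over the basal arrays without HPTE, from 443 to 1627 with FSH and from 434 to 1137 with cAMP. At 1 µM the ranges were 830 to 2286, 814 to 1758 and 388 to 476, and at 5 µM 981 to 2394, 1014 to 2162 and 459 to 642. At 10 µM they were 1013 to 2491, 1164 to 3092 and 559 to 970. From 1 to 10 µM the cAMP arrays thus lay below all basal and FSH arrays of the same dose, and FSH and basal overlapped. Between 0 and 10 µM the mean sum went from 956.5 to 1830.8 with FSH, from 689.1 to 718.5 with cAMP and from 1462.7 to 1657.8 in basal cells. Cd14 fell with FSH (-1.51) and with cAMP (-1.43) and rose with 10 µM HPTE in FSH-stimulated cells (1.43), each called, and Cd68 and Lyz2 were not called in these comparisons. Of 7 surface epithelium markers, Lrrn4 and Wt1 lay above the median. Wt1, which granulosa cells also express, fell with FSH (-1.3) and cAMP (-0.91) and rose with 10 µM HPTE and FSH (0.91). That list's sum ran from 3587 to 4304 in basal cells without HPTE, 2429 to 3096 with FSH, 2552 to 3055 with cAMP and 3114 to 3399 with FSH and 10 µM HPTE. The part of such cells in the Adm and Ndrg1 values was not tested. In bulk samples, fewer cells of a type and less RNA per cell cannot be told apart.

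Vegfa rose with 10 µM HPTE under both stimuli. It encodes the main growth factor for blood vessels. With cAMP it read 9.83, 9.56 and 9.66 without HPTE and 10.55, 10.47 and 10.59 at 10 µM. The groups did not overlap, and the rise was 0.85 ± 0.13 (1.8-fold, adjusted p = 0.000149). With FSH it read 10.0, 9.73 and 9.52 without HPTE and 10.17, 10.4 and 10.37 at 10 µM, a rise of 0.56 ± 0.13 (1.48-fold, adjusted p = 0.00366). Basal cells read 10.19, 10.04 and 10.08 against 10.43, 10.35 and 10.47. Their difference of 0.32 ± 0.13 was not called (adjusted p = 0.498), although all 3 exposed arrays lay above all unexposed ones. That HPTE acted more strongly with cAMP than in basal cells is not shown: the difference of 0.54 ± 0.18 had an adjusted p of 0.751, and of the 10 genes limma called none there (Vegfa and Pfkfb3 at an unadjusted p under 0.05, 0.19% of all genes called, 0.858% with the block). Without the number 2 arrays in doubt the rises were 0.79 with cAMP and 0.55 with FSH, both called. The FSH call ended without number 3 of all groups (0.42, adjusted p = 0.0975), and both calls ended with only the groups compared (0.127 with FSH and 0.107 with cAMP).

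At 5 µM the Vegfa differences were 0.23 with FSH and 0.2 with cAMP, with overlapping arrays and no call. At 1 µM neither stimulus had a call among the 10 genes by limma. Ndrg1 with FSH and Pdk1 with cAMP had an unadjusted p under 0.05, and 0.0141% and 0% of all genes were called (0.148% and 0.0422% with the block). At 5 µM with cAMP there was also none (Adm and Pdk1 at an unadjusted p under 0.05, 0.00703% of all genes called, 0.141% with the block). In unexposed cells Vegfa was lower with cAMP than in basal cells by 0.42 ± 0.13 on the log2 scale. That call (adjusted p = 0.0411) ended without any of basal numbers 1, 2 and 3 or cAMP numbers 2 and 3, at adjusted p of 0.163, 0.0731, 0.0876, 0.149 and 0.103, and without both number 2 arrays in doubt (0.158). With FSH the difference was -0.35 ± 0.13, and at 1 µM with cAMP -0.32 ± 0.13, both called with the block (adjusted p = 0.0285 and 0.0445) and not in the fit of all arrays without it. The FSH difference was also called without FSH number 1 (-0.48, adjusted p = 0.0282), and its block call ended without the number 2 arrays in doubt (0.0664). The second Vegfa probe set lies below the median of all probe sets and gave 0.27 ± 0.25 and 0.16 ± 0.25 for 10 µM HPTE with FSH and cAMP, with no call. Of the endothelium markers, 1 of 7 lay above that median, the VEGF receptor Kdr, and the list's summed intensity ranged from 511 to 1047 over all arrays.

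The genes of glucose use differed between stimulated and basal cells by amounts below 1 on the log2 scale. Slc2a1 carries glucose into the cell, Hk2 phosphorylates it, Pfkfb3 makes the activator of phosphofructokinase, Pgk1 is a later glycolytic enzyme and Ldha turns pyruvate into lactate. Not 1 of these 5 was called in any comparison in the fit of all arrays without the block, and Pfkfb3 was called in 6 without the number 2 arrays in doubt. With the block Slc2a1 had 5 calls, Ldha 7, Pgk1 6, Pfkfb3 1 and Hk2 none, and their values stayed as they were. Part of their spread followed the array number: number 3 was the lowest of its group in 12 of 12 groups for Slc2a1 and Pgk1, and the highest in 11 of 12 for Ldha. This did not hold in every group for a second Pgk1 probe set, which read 10.08, 9.22 and 9.56 with FSH and no HPTE.

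Slc2a1 read 11.05, 11.0 and 10.32 in basal cells without HPTE and 11.7, 11.23 and 11.08 with FSH. Each FSH array lay above all basal ones, by 0.66, 0.23 and 0.76 within numbers. The mean of 0.55 ± 0.31 was not called (adjusted p = 0.441), and it was with the block (0.00813). At 1 µM the 3 differences were 0.77, 0.12 and 0.89 (block adjusted p = 0.0083). With FSH and 5 µM HPTE the level was lower than with FSH alone by 0.49, 0.43 and 0.51 within numbers, called with the block (adjusted p = 0.0265). At 10 µM these differences from FSH alone were -0.4, 0.18 and -0.3, not called in either fit (block adjusted p = 0.547). With cAMP Slc2a1 was above basal within all 3 numbers at every dose. The means were 0.22, 0.51, 0.48 and 0.3 from 0 to 10 µM, and those at 1 and 5 µM passed with the block. At 0 µM the 3 differences were 0.1, 0.48 and 0.06, and without the number 2 arrays in doubt the mean was -0.02 (0.05 with the block).

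Ldha gave the larger of these differences. In basal cells at 1 µM HPTE it read 10.33, 10.01 and 10.61, with FSH 11.22, 10.32 and 11.57, and with cAMP 10.94, 10.67 and 11.34. The cAMP arrays lay above all basal ones and the FSH arrays overlapped them. The differences within numbers were 0.89, 0.32 and 0.97 with FSH and 0.61, 0.66 and 0.73 with cAMP (block adjusted p = 0.01 and 0.00918). At 5 and 10 µM cAMP kept Ldha above basal by 0.67 and 0.68, both called with the block. FSH gave 0.24 and 0.01, which were not called in either fit. With 10 µM HPTE, Ldha was lower in FSH-stimulated cells by 0.64, 0.61 and 0.53 within numbers (block adjusted p = 0.0226, against 0.472 without it).

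Pgk1 followed in size after Ldha. It was above basal by 0.5 with FSH at 1 µM, and by 0.52 and 0.49 with cAMP at 5 and 10 µM, each higher within all 3 numbers and called with the block but not without it. In FSH-stimulated cells 10 µM HPTE gave -0.49 ± 0.34, lower within all 3 numbers (block adjusted p = 0.0113). The second Pgk1 probe set had group means of 9.27 in basal cells and 9.85 with FSH at 1 µM. At 5 µM it had 9.16 in basal cells and 9.67 with cAMP. With FSH it had 9.62 at 0 µM and 9.23 at 10 µM. The effect of 10 µM HPTE was lower with FSH than with cAMP by 1.01 for Ldha and 0.72 for Pgk1, called with the block and not without it (adjusted p = 0.0152 and 0.0228, with 4 of the 10 genes and 7.56% of all genes called). Hk2, whose probe set lies below the median of all probe sets, kept its group means between 4.62 and 4.91, a range of 0.29.

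**Figure D3:**
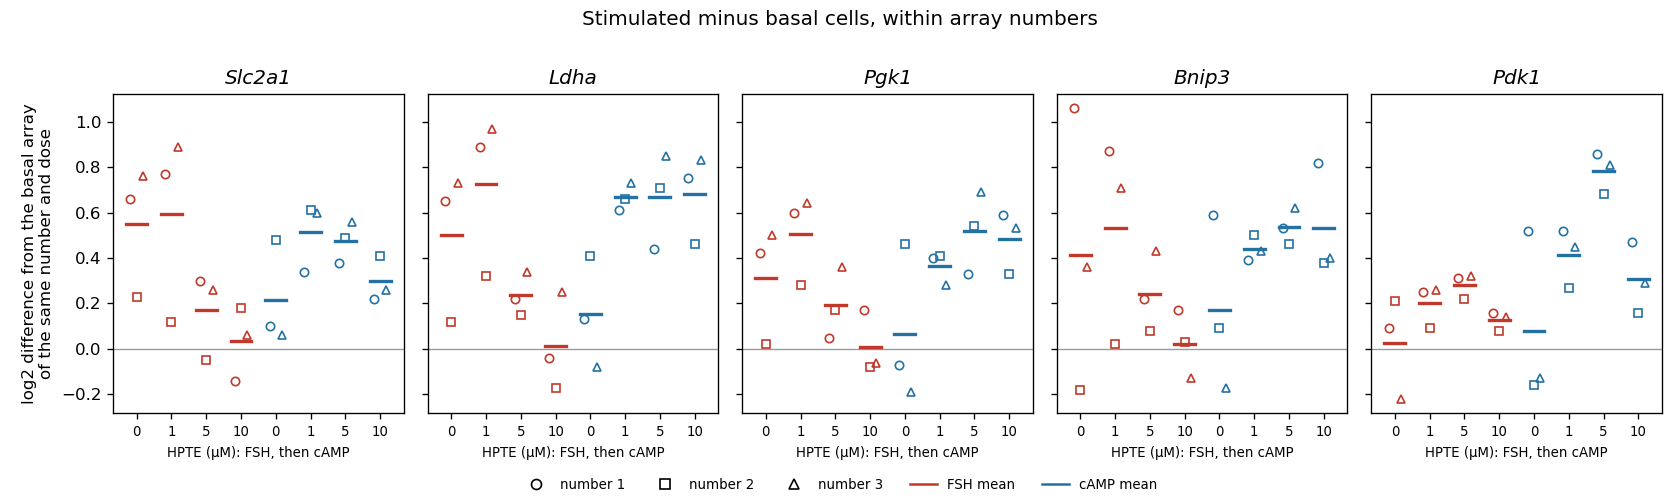
Log2 difference between a stimulated array and the basal array of the same number and dose (vertical axis) for Slc2a1, Ldha, Pgk1, Bnip3 and Pdk1, at 0, 1, 5 and 10 µM HPTE with FSH (red, left) and cAMP (blue, right). Markers are array numbers 1 to 3 and bars their means. Ldha stays above 0 with cAMP at 1 to 10 µM in all 3 numbers, while with FSH its mean falls from 0.73 at 1 µM to 0.01 at 10 µM.

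Pfkfb3 depended most on the number 2 arrays in doubt. Without HPTE it read 8.52, 7.2 and 8.25 with FSH and 7.57, 7.94 and 6.69 with cAMP, so that number 2 lay lowest in one group and highest in the other. With all arrays the effect of 10 µM HPTE was -0.39 ± 0.26 with FSH and 0.77 ± 0.26 with cAMP, neither of them called. Leaving out both number 2 arrays gave -0.79 ± 0.21 (adjusted p = 0.0153) and 1.04 ± 0.21 (adjusted p = 0.00488), where 10.7% and 3.56% of all genes were called. These effects differed by -1.83 ± 0.3 (adjusted p = 0.000326, with 4.65% of all genes called), against -1.16 ± 0.36 with all arrays (adjusted p = 0.119, and 0.0383 with the block). Unexposed FSH and cAMP cells then differed in Pfkfb3 by 1.26 ± 0.23 (adjusted p = 0.00205), against 0.59 ± 0.26 with all arrays. At 1 µM, where no array is in doubt, it read 8.2, 7.92 and 8.15 with FSH and 7.35, 7.38 and 7.05 with cAMP. All 3 FSH arrays were the higher ones. The difference there of 0.83 was called with the smaller spread of the fit that leaves out both arrays (adjusted p = 0.0206, with 1.78% of all genes called). The difference of cAMP from basal without HPTE was then -0.68 ± 0.21 (adjusted p = 0.0467, with 9.49% of all genes called), against -0.41 ± 0.26. Of the 2 other Pfkfb3 probe sets neither was called in any comparison.

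Pdk1 and Bnip3 act at the mitochondria. Pdk1 inhibits pyruvate dehydrogenase, and Bnip3 takes part in the removal of mitochondria. Pdk1 at 5 µM HPTE read 7.63, 7.66 and 7.7 in basal cells and 8.49, 8.34 and 8.51 with cAMP, with no overlap and a rise of 0.78 ± 0.13 (1.72-fold, adjusted p = 6.54e-05). At 1 µM the rise was 0.42 ± 0.13 (adjusted p = 0.0335). This call ended without cAMP numbers 1 or 3 (adjusted p = 0.158 and 0.114) or any of basal numbers 1, 2 and 3 (0.0832, 0.0895 and 0.0823). At 0 and 10 µM cAMP gave 0.08 and 0.31, and FSH gave 0.03 to 0.28 over the 4 doses, none of them called. The other Pdk1 probe set was not called in any comparison, and with the mean of both neither rise was called (0.39 at 5 µM, adjusted p = 0.202, and 0.27 at 1 µM, 0.448). The call at 1 µM also ended without number 3 of all groups (0.192) and with only the groups compared (0.116).

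Bnip3 with cAMP read 9.96, 9.79 and 9.66 without HPTE and 10.55, 10.34 and 10.5 at 10 µM, without overlap. This difference of 0.66 ± 0.21 was called with the block (adjusted p = 0.0211) and not without it (0.131). It lay above basal at 5 and 10 µM with cAMP by 0.54 and 0.53, called with the block and not without it. With FSH alone the differences within numbers were 1.06, -0.18 and 0.36, and without the number 2 arrays in doubt the mean was 0.67 ± 0.21 (adjusted p = 0.0462, with 10.3% of all genes called) in place of 0.41 ± 0.21. At 1 µM with FSH, where no array is in doubt, the difference of 0.53 was not called. It became 0.83 (adjusted p = 0.00887) without FSH number 2.

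Beyond the 10 genes, 91 further genes were measured in lists of the HIF machinery (11), other hypoxia-induced genes (26), glycolysis enzymes (17), glucose and lactate transporters (9), pyruvate entry into mitochondria (12), VEGF relatives and receptors (12) and adrenomedullin receptors (4). FSH without HPTE raised 7 and lowered 7 of them, 15.4% against 10.2% of all genes (12 and 13 with the block, where 20% of all genes were called). cAMP raised 3 and lowered 4, 7.69% against 9.21% (8 and 18 with the block, against 19.3%). HPTE at 10 µM with FSH raised 9 and lowered 7, 17.6% against 10.8% (14 and 16 with the block, against 21.5%). With cAMP it raised 3 and lowered none, 3.3% against 2.51%. With the block these were 11 and 1 (7.94% of all genes), and without the number 2 arrays in doubt 7 and 3 (3.56%). In basal cells limma called none of the 91 at 10 µM, where 1.46% of all genes were called (3 and 2 with the block, against 4.71%). The median log2 difference of the 10 genes was between -0.1 and 0.44 in the 9 comparisons of HPTE doses, and that of all genes between -0.06 and 0.03.

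FSH raised 5 and lowered 2 of the 26 other hypoxia-induced genes, where 10.2% of all genes were called. The counts were 6 and 5 with the block (20% of all genes) and 5 and 1 without the number 2 arrays in doubt (10.3%). Hilpda, a lipid droplet protein, rose by 1.10 ± 0.19 with FSH (adjusted p = 0.000147) and by 0.94 ± 0.19 with cAMP (adjusted p = 0.000946). Bnip3l, a relative of Bnip3, rose by 0.53 ± 0.11 with either. Lox, which crosslinks collagen, read 12.84, 13.01 and 13.09 in basal cells and 9.85, 12.11 and 10.89 with FSH, a fall of 2.03 ± 0.42 (adjusted p = 0.00134). With cAMP Lox read 12.18, 11.0 and 12.66, and without the number 2 arrays in doubt its fall with FSH was 2.61. Ddit4 rose by 3.21 ± 0.84, and Ero1a and Insig2 by 0.71 and 0.68, while Bhlhe40 fell by 0.66. These calls of Ddit4, Ero1a, Insig2 and Bhlhe40 ended without 1 or more single arrays, among 9 of the 14 called genes of the lists for which this held (adjusted p of 0.0503 to 0.241). For Ddit4 these were basal numbers 1 and 2 and FSH numbers 1 and 3, for Ero1a basal number 1 and FSH numbers 1 and 3, for Insig2 basal numbers 1 and 2 and FSH numbers 1 and 3, and for Bhlhe40 FSH number 2. Bhlhe40 also lost its call without both number 2 arrays in doubt (adjusted p = 0.0865). The calls of Bnip3l, Hilpda, Lox, Pfkm and Pdk4 held without any single array, but with only the groups compared those of Bnip3l, Lox and Pfkm did not (adjusted p = 0.138, 0.107 and 0.0608). With cAMP the 26 genes gave 2 calls higher (Hilpda and Bnip3l) and 2 lower (P4ha1, -1.07, and Bhlhe40, -0.75), where 9.21% of all genes were called. The counts were 5 and 4 with the block (19.3% of all genes) and 3 and 4 without the number 2 arrays in doubt (9.49%). The call of P4ha1 ended without cAMP numbers 1 or 3 or basal number 3 (adjusted p = 0.0978, 0.0699 and 0.191). Of the 11 genes of the HIF machinery, FSH lowered Cited2, which competes with HIF for its coactivator, by 0.57 (10.2% of all genes called). HPTE at 10 µM with FSH raised Cited2 by 0.67 and Arnt2 by 1.34 (10.8% of all genes called). All 3 calls ended without some single arrays, number 3 of unexposed FSH among them (adjusted p = 0.237, 0.0869 and 0.147).

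HPTE at 10 µM with FSH raised 3 and lowered 2 of the 26, where 10.8% of all genes were called. With the block it raised 4 and lowered 9 (21.5% of all genes). Angptl4, which inhibits lipoprotein lipase, read 8.23, 8.62 and 7.47 without HPTE and 11.37, 10.68 and 10.42 at 10 µM, a rise of 2.72 ± 0.49 (adjusted p = 0.000317). With cAMP it rose by 2.25 ± 0.49 (adjusted p = 0.00984), a call that ended without number 1 of the exposed group (adjusted p = 0.0827) or number 3 of the unexposed one (0.0761). Bhlhe40, a transcriptional repressor, rose by 0.96, and Lox by 1.81, a call that ended without number 1 of unexposed FSH (adjusted p = 0.0615). Ero1a and Tfrc fell by 0.75 and 0.89, calls that ended among others without number 1 of unexposed FSH (adjusted p = 0.0993 and 0.306). Hmox1, which breaks down heme, rose with cAMP by 1.70 ± 0.35, a call that ended without number 3 of unexposed cAMP (adjusted p = 0.0596).

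Among the enzymes, Pfkm and Pdk4 changed with both stimuli. Pfkm, the muscle form of phosphofructokinase, was the only 1 of 17 other glycolysis enzymes called with either stimulus in the fit of all arrays without the block. Of all genes 10.2% were called there with FSH and 9.21% with cAMP. With the block cAMP also gave calls for Hk1 (-0.57), Eno2 (-0.47) and Pklr (0.34), where 19.3% of all genes were called. Hk1 was called without the number 2 arrays in doubt too (-0.74, with 9.49% of all genes called). Pfkm read 8.12, 8.24 and 7.65 in basal cells, 8.95, 9.29 and 8.75 with FSH, and 7.79, 7.54 and 7.17 once 10 µM HPTE was present besides FSH. It rose with FSH by 0.99 ± 0.21 (adjusted p = 0.00184) and with cAMP by 0.94 ± 0.21, and 10 µM HPTE lowered it in FSH-stimulated cells by 1.49 ± 0.21 (adjusted p = 1.24e-05). Aldoc fell by 0.97 in that comparison, a call that ended without number 1 or 3 of unexposed FSH (adjusted p = 0.0852 and 0.15) or number 1 or 2 of the exposed group (0.0533 and 0.111). Pdk4, which like Pdk1 inhibits pyruvate dehydrogenase, read 7.3, 7.27 and 7.15 in basal cells. FSH arrays read 5.46, 5.84 and 5.22, and those with 10 µM HPTE besides FSH read 7.06, 7.44 and 7.33, close to the basal ones. FSH lowered it by 1.74 ± 0.26 (adjusted p = 3.02e-05) and cAMP by 1.44 ± 0.26, and 10 µM HPTE raised it in FSH-stimulated cells by 1.77 ± 0.26 (adjusted p = 2.19e-05) but gave 0.09 with cAMP. Pdha1, a subunit of pyruvate dehydrogenase, also fell with FSH (-0.89) and cAMP (-0.98). It was the other one of the 12 genes of pyruvate entry called there without the block (10.2% and 9.21% of all genes). With the block Dld was called with FSH (0.69), and Pdk2 (-0.38), Pdk3 (-0.48) and Mpc1 (-0.52) with cAMP (20% and 19.3% of all genes). The calls of Pdha1 ended without basal number 2 or FSH number 3 (adjusted p = 0.0623 and 0.064) and without cAMP number 3 (0.0561). Pdhb fell by 0.62 with 10 µM HPTE and FSH, a call that ended without number 1 of the unexposed or number 2 or 3 of the exposed FSH arrays (adjusted p = 0.0662, 0.0581 and 0.051).

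Of the lactate and glucose transporters, Slc16a7 rose by 1.46 ± 0.23 with 10 µM HPTE and FSH (adjusted p = 5.6e-05), and Slc16a1 and Slc16a3 fell by 0.92 and 1.13. These 2 falls lost their calls without single arrays, up to an adjusted p of 0.243 for Slc16a1 without number 3 and 0.139 for Slc16a3 without number 1 of unexposed FSH. FSH without HPTE had raised Slc16a3 by 1.08 and lowered Slc16a7 by 0.75, and lowered Angpt1, a ligand of the endothelial receptor Tek, by 2.16. Those 3 calls ended without FSH number 1 (adjusted p = 0.184, 0.138 and 0.135) and without other single arrays. Slc2a3, another glucose transporter, rose with 10 µM HPTE and cAMP by 1.04 ± 0.22 (adjusted p = 0.0094), a call that ended without number 2 of the exposed group (0.0691). Among VEGF relatives, Nrp2, a coreceptor of VEGF, rose by 2.00 ± 0.45 with 10 µM HPTE and FSH (adjusted p = 0.00368). Ramp1 was called there, at 1.75 ± 0.47, where 10.8% of all genes were called. It is 1 of the 4 genes listed with the adrenomedullin receptors, but with Calcrl it forms the receptor for CGRP, another peptide. The call of Ramp1 was lost without unexposed FSH number 1 (adjusted p = 0.0742) or exposed number 3 (0.147). The transcript of Hif1a itself was called only for cAMP at 5 µM (0.76 ± 0.24, adjusted p = 0.0467), a call that ended without any of 5 of the 6 arrays.

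**Figure D4:**
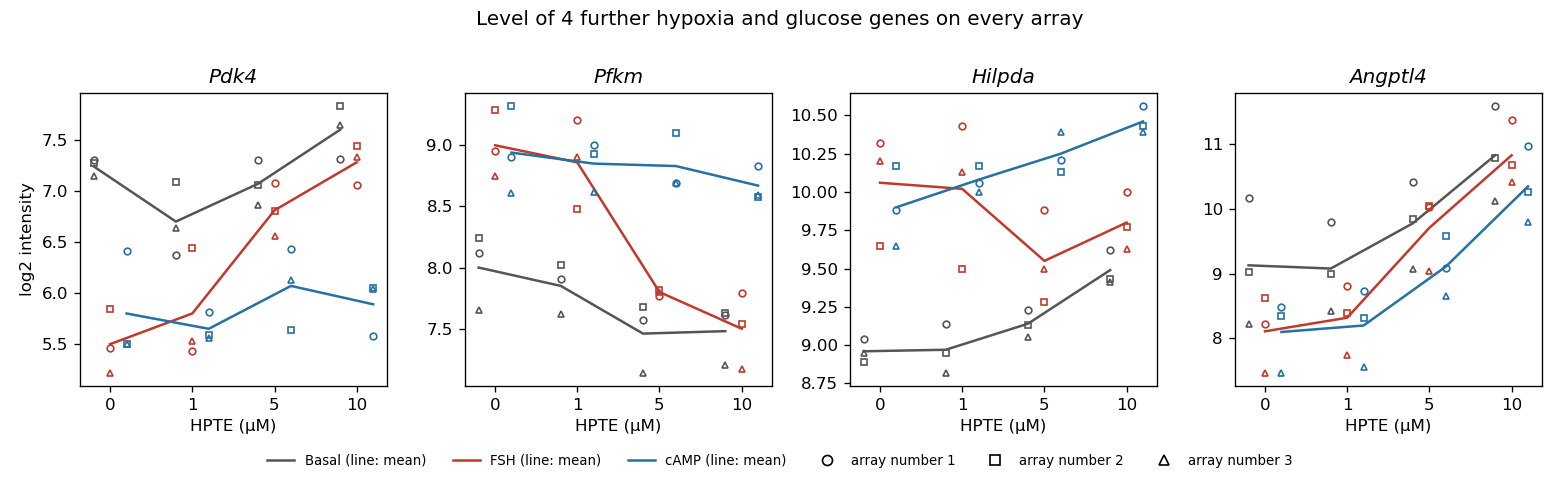
Log2 intensity (vertical axis, own scale for each gene) of Pdk4, Pfkm, Hilpda and Angptl4 on every array against HPTE dose in µM, drawn as for the 10 genes: colours for basal, FSH and cAMP, marker shapes for array numbers, lines through group means of 3 arrays. With FSH, Pdk4 goes from 5.5 at 0 µM to 7.28 at 10 µM and Pfkm from 9.0 to 7.5, while with cAMP they are 5.89 and 8.67 at 10 µM.

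Over the 12 group means, the genes whose levels ran most like Vegfa were Slc7a5 (Pearson r = 0.972), Eno2 (0.965), Psap (0.959), Slc6a9 (0.959) and Chac1 (0.958), among 1837 genes with a mean log2 level over 6 and group means spanning at least 1. Those most like Ndrg1 were Wipf1 (0.995), Msn (0.995), Fn1 (0.993), Rhoj (0.991) and Col4a2 (0.99). These values describe 12 groups that share array numbers and have no test.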

How the data were processed

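The deposited values are linear intensity values, 1 per probe set of an Affymetrix rat array, which the authors made with RMA per the submitters' processing notes. The series text names ArrayAssist, with no version in the labels. RNA (40 ng per sample) was amplified before labelling, per the labels' protocols. RMA's quantile scaling assumes that most probe sets do not change. Here log2 was taken, 57 control probe sets were set aside and 31042 were tested without a filter.

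Group means were compared in R 4.3.3 with limma 3.58.1 (lmFit, eBayes), using 12 group means, 24 residual degrees of freedom, two-sided tests and Benjamini-Hochberg adjustment within each of 23 comparisons. Arrays have no count depth, and 3 arrays a group limit the precision. The fit was tested on simulated data. Of the probe sets, 20826 had 1 gene symbol, 436 several and 9780 none.

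The members and lists were chosen with earlier results of these data known. All 10 members are described. Of each list up to 3 called genes per direction with the largest difference are named, and all where a count is 5 or fewer. Levels of different probe sets were not compared. The numbers were treated as paired, since the correlation of same-number deviations was over 0.1 for every pair in 19 of 20 comparisons (lowest -0.12, highest 0.89). Different numbers also correlated, up to 0.64 for 1 µM HPTE in basal cells, where numbers 1 to 3 gave 0.22, 0.33 and 0.86. The limit of 0.1 therefore does not by itself show that numbers 1 and 2 are paired. Alternatives were the number as a block, quantile normalization, dim probe sets left out, other sets of arrays, the mean of a gene's probe sets and single arrays left out.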

Additional observations from a re-analysis of the deposited data

Results flagged for a closer look

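Among the 10 genes and the 91 of the lists, 5 had an effect of 10 µM HPTE that differed between FSH-stimulated and other cells by limma's test of the difference itself. Of all genes 2.9% were called between FSH and basal and 2.54% between FSH and cAMP, against 1.1% and 4.4% of the 91. With the block the 91 gave 8 higher and 6 lower, and 7 higher and 14 lower, where 8.81% and 7.56% of all genes were called. For Ndrg1 the effect with FSH exceeded that in basal cells by 1.64 and that with cAMP by 1.28 on the log2 scale, and no single array ended either call. For Pdk4 the matching values were 1.41 and 1.69. The first call ended when any of 9 arrays was left out singly (adjusted p of 0.053 to 0.115), and the second held without any single array. Lox had an effect that was higher with FSH than with cAMP by 2.67 (3.73 without the number 2 arrays in doubt). Lower effects with FSH than with cAMP were those of Plod1 (-1.4) and Pfkm (-1.22). These calls ended when any of 7 arrays (Plod1) or 6 arrays (Pfkm) was left out singly, at adjusted p up to 0.102 and 0.104. Without number 3 of all groups, the calls between FSH and cAMP of Lox, Pdk4, Plod1 and Pfkm ended (adjusted p = 0.261, 0.164, 0.215 and 0.15), as did that of Pdk4 between FSH and basal (0.326).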

How the results depend on the processing

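No call reversed its direction under any setting. A sign change of a value that passed in neither setting was not counted as a reversal. With the array number as a replicate block, the calls among the 10 genes changed. FSH against basal gave 4 and 5 at 0 and 1 µM (20% and 10.5% of all genes). For cAMP against basal there were 6, 7 and 5 at 1, 5 and 10 µM (22%, 20.4% and 15.2%). FSH against cAMP at 10 µM gave 4 (13.5%). HPTE at 10 µM gave 1 in basal cells, 5 with FSH and 4 with cAMP (4.71%, 21.5% and 7.94% of all genes). The difference of its effect between FSH and cAMP gave 4 (7.56%). The block left FSH against cAMP at 0 µM at 0. Without number 2 of unexposed FSH and cAMP there were 2 calls for FSH at 0 µM (10.3% of all genes). FSH against cAMP then gave 1 and 2 at 0 and 1 µM (2.71% and 1.78%). HPTE at 10 µM with cAMP gave 2 (3.56%), and the difference of its effect between FSH and cAMP gave 2 (4.65%). With the block added, a setting chosen after seeing the data, there were 7 for FSH at 0 and at 1 µM, 7, 7 and 6 for cAMP at 1, 5 and 10 µM, 4, 2 and 6 for FSH against cAMP at 0, 1 and 10 µM, 1 for 10 µM HPTE in basal cells, 4 and 6 for 5 and 10 µM with FSH, 3 and 7 with cAMP, and 2, 2 and 6 for the effect differences of FSH and basal, cAMP and basal, and FSH and cAMP. For this last setting and those named below, the share of all genes is not given. These counts therefore do not show whether the 10 genes changed more often than other genes. FSH against cAMP at 1 µM gave 0 without replicate 3 of all groups, with the mean of a gene's probe sets, and with only the groups compared. HPTE at 10 µM with cAMP gave 2 under quantile normalization, without dim probe sets, with the mean of probe sets and without replicate 3. With only the groups compared, FSH at 1 µM gave 0 and 5 µM HPTE with FSH 1. Leaving out single arrays gave 1 to 2 calls for FSH at 0 and 1 µM and for cAMP at 0 µM, 1 to 3 and 2 to 3 for cAMP at 1 and 5 µM, 0 to 1 for FSH against cAMP at 1 µM, 1 to 2 and 2 to 4 for 5 and 10 µM HPTE with FSH, 1 to 2 for 10 µM with cAMP and 1 to 3 for its effect difference between FSH and cAMP. Fewer arrays or a block change the residual spread by construction, and other causes were not tested. Hk2 lies below the median signal and had no value without dim probe sets. Another background correction was not run, because only normalized values were used here.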
